A study of Danio rerio with 9 samples.

Results

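The genes described here encode the transcription factors SREBP1 and SREBP2, their regulators, proteins of cholesterol uptake through the LDL receptor and a sterol carrier. They were chosen by name (srebf1, srebf2, scap, insig1, insig2, ldlra, mylipa, mylipb and stard4) and matched by symbol to 9 of the 32520 gene IDs counted. The symbol table gives the same symbol, MYLIP, to a pair of IDs and does not say which is mylipa and which is mylipb, so both are given by ID. RNA was measured by polyA RNA sequencing of whole zebrafish embryos collected 30 hours after fertilisation, in 3 pools of 30 embryos for each of 3 genotypes of npc2. The groups were wild type (npc2+/+), heterozygous (Mnpc2+/m) and homozygous (MZnpc2m/m) for an npc2 mutation whose allele the labels do not describe. By zebrafish convention M marks loss of the maternal product and MZ loss of the maternal and the zygotic product, which the labels do not spell out. Heterozygous and homozygous embryos came from the same crosses and were told apart by phenotype. The wild-type group (npc2+/+) came from other crosses, between npc2+/+ fish that were siblings of the mutants' parents. Parents and cross thus go with genotype wherever wild type is compared, and these cannot be told apart, while homozygous and heterozygous pools shared their crosses.

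NPC2 is a soluble lysosomal protein that binds cholesterol released from endocytosed lipoproteins and hands it to NPC1 for export from the lysosome. In mammals, when sterol in the endoplasmic reticulum is low, SCAP escorts the SREBP precursors to the Golgi, where proteases free their transcription factor domains; when sterol is high, INSIG proteins hold SCAP and SREBP back. SREBP2 mainly drives genes of cholesterol synthesis and the LDL receptor, and SREBP1 mainly genes of fatty acid synthesis. MYLIP, also called IDOL, is a ubiquitin ligase that marks the LDL receptor for degradation and is induced by the oxysterol receptor LXR when sterol is plentiful. STARD4 is a soluble carrier that moves sterol between membranes inside the cell.

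Total counts per library ran from 38564405 to 69360234. The mutated gene checked the labels. NPC2 (ENSDARG00000090912) was at 264, 256 and 278 CPM (CPM divides a gene's count by the library's scaled total and multiplies it by a fixed constant) in the 3 wild-type pools, at 144, 146 and 142 in the heterozygous pools and at 34.1, 32.6 and 44.3 in the homozygous pools. The 3 genotypes did not overlap, in the order of their labels. ENSDARG00000096979, which also carries the symbol NPC2, had a mean of 1.96 ± 0.282 CPM in wild type, 1.41 ± 0.572 in heterozygotes and 1.21 ± 0.136 in homozygotes (SD, n = 3). The labels describe separate pools but name no clutch or day, so the spread behind each p-value is that of pools only.

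Against wild type, homozygous embryos had more srebf2, srebf1, ldlra and stard4 RNA, each with a fitted rise of at least 2-fold, a little more scap RNA, and less RNA of the MYLIP ID ENSDARG00000008859. In heterozygous embryos ldlra, stard4, scap and the other MYLIP ID were above wild type and srebf2 was not. A change was called at an adjusted p under 0.05 in edgeR's quasi-likelihood test fitted to all 20375 genes that passed the filter on low counts, and ± gives the standard error beside a log2 fold change and the SD of 3 pools beside a CPM value. Of the 9 IDs, 8 passed the filter and insig1 did not. In homozygous against wild-type embryos 5 of the 8 rose, 1 fell and 2 did not pass, where 44.5% of all tested genes were called, 23.5% higher and 21.1% lower. In heterozygous against wild-type embryos 4 rose, 0 fell and 4 did not pass, against 29.8% of all tested genes called, 15.5% higher and 14.4% lower. In homozygous against heterozygous embryos 4 rose, 3 fell and 1 did not pass, against 39.8% called, 20.4% higher and 19.4% lower. The pools of the 2 genotypes did not overlap for 6, 5 and 7 of the 8 genes in these comparisons, as was so for 53.9%, 42.7% and 51.2% of all tested genes. The median log2 fold change of the 8 was 0.70, 0.32 and 0.32 in these comparisons, and that of all tested genes 0.02, 0.00 and 0.01. A fitted rise of at least 2-fold was found for 4 of the 8 in homozygous against wild-type embryos and for 6.08% of all tested genes. A fitted fall of at least 2-fold was found for 1 of the 8, a MYLIP ID, and for 3.56% of all tested genes. The genes were chosen with earlier results of these data known, so these counts describe the set and do not test it. The comparisons share libraries, so their results are not independent of each other. In whole embryos, fewer cells of a type and less RNA per cell cannot be told apart.

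**Figure D1:**
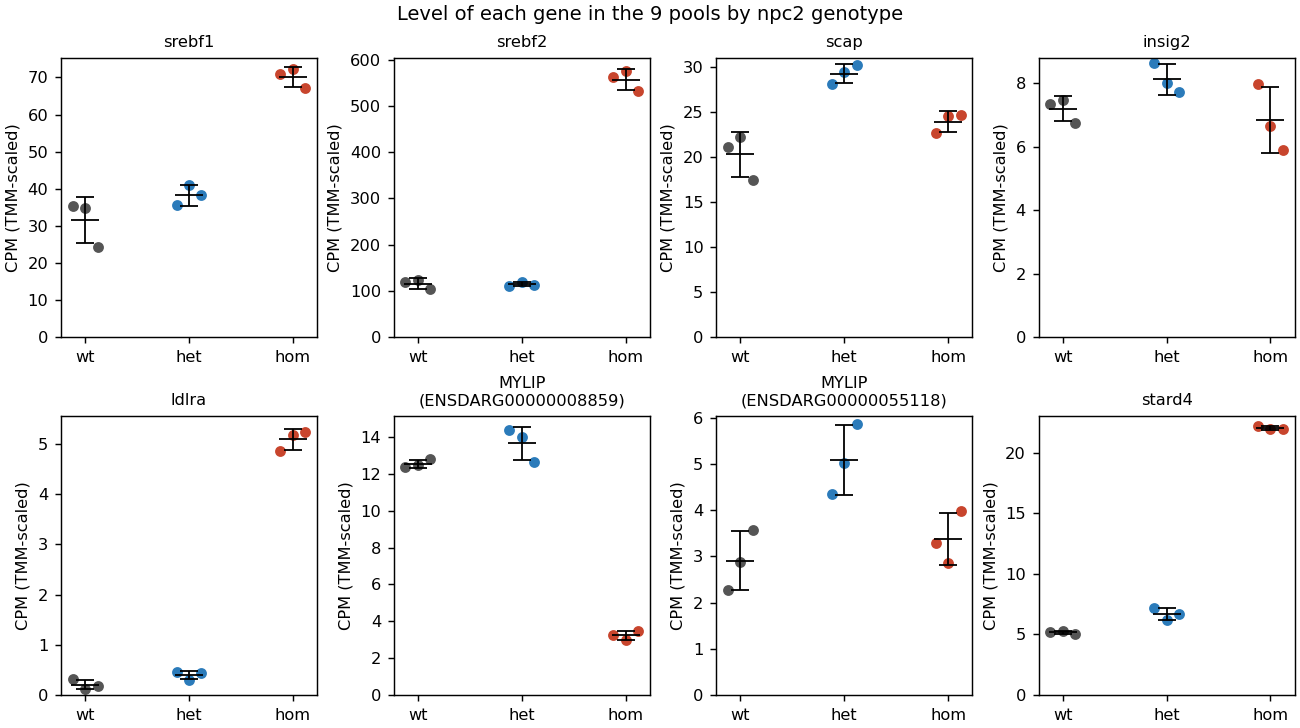
Level of the 8 genes that passed the filter, in CPM on a linear axis from 0, in the 3 wild-type (wt), 3 heterozygous (het) and 3 homozygous (hom) pools. Points are pools and bars are the mean ± SD (n = 3). The homozygous pools stand above all others for srebf1, srebf2, ldlra and stard4 and below all others for MYLIP ENSDARG00000008859.

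Of the transcription factor genes, srebf2 was higher in homozygous embryos than in both other genotypes. It was at 120.3, 124 and 103 CPM in the wild-type pools, 111, 119 and 114 in the heterozygous pools and 563, 576 and 531 in the homozygous pools. Wild-type and heterozygous pools overlapped, and every homozygous pool lay far above both. The rise was 4.80-fold against wild type (log2 2.26 ± 0.06, adjusted p = 3.8e-14) and 4.85-fold against heterozygous siblings (log2 2.28 ± 0.06, adjusted p = 4.59e-14). Among tested genes with a positive change, srebf2 ranked 239 of 10568 against wild type and 158 of 10291 against heterozygous embryos. In heterozygous against wild-type embryos the log2 fold change was -0.02 ± 0.06 (adjusted p = 0.874), with a 95% interval of -0.14 to 0.11.

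The gene of the second factor, srebf1, changed less. It was at 35.3, 34.9 and 24.4 CPM in the wild-type pools, 35.5, 41.0 and 38.2 in the heterozygous pools and 70.9, 72.4 and 67.2 in the homozygous pools. Homozygous pools were above all others, and wild-type replicate 3 was lower than the rest of its group. The rise was 2.23-fold against wild type (log2 1.16 ± 0.13, adjusted p = 1.17e-04) and 1.83-fold against heterozygous embryos (log2 0.88 ± 0.13, adjusted p = 6.76e-04). The heterozygous change of 0.28 ± 0.13 did not pass (adjusted p = 0.149, interval -0.02 to 0.58), although the pools did not overlap, as for 42.7% of all tested genes. With DESeq2 this change passed (adjusted p = 0.0369), and without wild-type replicate 3 it was 0.12.

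Because both genes were counted in the same libraries, the ratio of their counts shows how they moved relative to each other without a scaling factor, although gene length keeps it from giving relative levels. The ratio of srebf2 to srebf1 counts was 3.41, 3.56 and 4.24 in wild-type pools, 3.14, 2.90 and 2.97 in heterozygous pools and 7.94, 7.96 and 7.91 in homozygous pools. It was thus highest in every homozygous pool and lowest in every heterozygous pool. Each pair of genotypes was separate, and a two-sided exact permutation test gave p = 0.10 for each, the smallest that 3 against 3 pools allow.

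**Figure D2:**
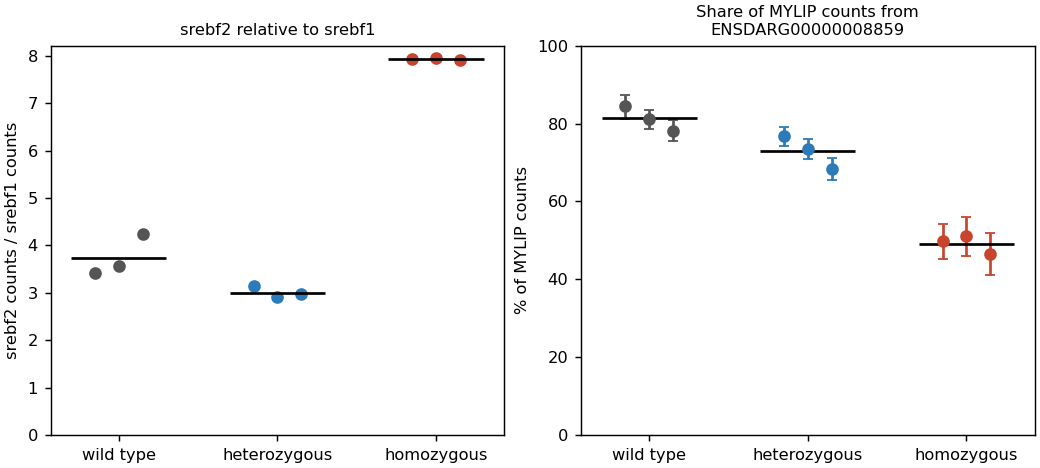
Left, counts of srebf2 divided by counts of srebf1 in each pool. Right, the percent of all MYLIP counts that came from ENSDARG00000008859, with 95% Wilson intervals that cover counting error only and are too narrow if fragments were counted 2 times. Points are pools and black lines are group means (n = 3). The ratio is near 8 in homozygous pools and below 5 elsewhere, and the MYLIP share falls from 78.2% to 84.5% in wild-type pools to 46.5% to 51.1% in homozygous pools.

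The escort gene scap was highest in heterozygous embryos. It was at 21.1, 22.3 and 17.5 CPM in the wild-type pools, 28.1, 29.5 and 30.3 in the heterozygous pools and 22.7, 24.5 and 24.7 in the homozygous pools. All heterozygous pools lay above all others, and all homozygous pools above all wild-type pools. Scap RNA rose by 0.53 ± 0.08 on the log2 scale in heterozygous against wild-type embryos (adjusted p = 7.96e-05). In homozygous against heterozygous embryos the log2 fold change was -0.29 ± 0.08 (adjusted p = 0.00602). The change of 0.24 ± 0.08 in homozygous against wild-type embryos passed (adjusted p = 0.0213), but not without homozygous replicate 2 (0.21, adjusted p = 0.0756), homozygous replicate 3 (0.21, adjusted p = 0.0663) or wild-type replicate 3 (0.14, adjusted p = 0.113).

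Of the INSIG genes, which encode the proteins that retain SCAP, insig2 did not pass in any of the 3 comparisons between genotypes. It was at 7.35, 7.49 and 6.76 CPM in wild-type pools, 8.65, 8.003 and 7.71 in heterozygous pools and 7.96, 6.66 and 5.89 in homozygous pools. Homozygous pools overlapped with both other groups, and heterozygous pools lay above wild-type pools. The log2 fold change against wild type was -0.07 ± 0.11 in homozygous embryos (adjusted p = 0.646, interval -0.30 to 0.16) and 0.17 ± 0.11 in heterozygous embryos (adjusted p = 0.249, interval -0.05 to 0.40). These intervals do not reach a 2-fold change. Homozygous against heterozygous embryos gave -0.24 ± 0.11 (adjusted p = 0.0852), which passed without homozygous replicate 1 (-0.37, adjusted p = 0.0181).

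The ID with the symbol insig1 held almost no counts. It had 0 counts in 8 libraries and 1 count in homozygous replicate 2. A level of 3 counts, taken as the limit that a count of 0 allows, is 0.0433 to 0.0778 CPM in these libraries. Of counts from 1 to 19, 96.3% to 97.5% per library were even, and if fragments were counted 2 times this limit is 2 times as high. At most 1 count over all 9 libraries was found for 6502 of the 32520 gene IDs. No fold change is given for insig1, and how the counting treated reads of this gene was not tested.

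On the uptake side, the receptor gene ldlra went from at most 12 counts per library in wild type to at least 224 in homozygous embryos. It had 12, 8 and 10 counts in the wild-type pools, 30, 18 and 24 in the heterozygous pools and 340, 330 and 224 in the homozygous pools. These are 0.311, 0.125 and 0.184 CPM, then 0.463, 0.304 and 0.434 CPM, and then 4.85, 5.18 and 5.23 CPM. Homozygous pools were far above both other genotypes, while wild-type replicate 1 lay above heterozygous replicate 2. It was above the level of the low-count filter, 0.167 CPM, in 2 of 3 wild-type pools and in every heterozygous and homozygous pool. The ratio of mean CPM was 24.6 for homozygous against wild-type embryos (log2 4.69 ± 0.26, adjusted p = 1.64e-10), and the fitted change ranked 38 of the 10568 positive ones. It was 12.7 for homozygous against heterozygous embryos (log2 3.66 ± 0.23, adjusted p = 1.31e-09). The heterozygous rise of 1.03 ± 0.30 (adjusted p = 0.0142) rests on few counts. The call, not the direction, was lost without heterozygous replicate 1 (log2 0.91, adjusted p = 0.0569) or wild-type replicate 2 (0.74, adjusted p = 0.0933), with limma-voom (1.07, adjusted p = 0.0649) and in an edgeR fit of these 2 genotypes alone (1.01, adjusted p = 0.105).

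A second LDL receptor gene, ldlrb, is not among the genes chosen by name but belongs to the wider list of lipoprotein receptors. It was at 58.0, 60.8 and 55.6 CPM in wild-type pools, 90.1, 86.1 and 80.7 in heterozygous pools and 272, 267 and 246 in homozygous pools. The 3 genotypes did not overlap, in the order wild type, heterozygous, homozygous. Its rise was 2.17 ± 0.06 in homozygous (adjusted p = 5.67e-15) and 0.56 ± 0.06 in heterozygous embryos (adjusted p = 1.42e-06) on the log2 scale.

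The IDs of MYLIP, the ligase that acts on the LDL receptor, did not move alike. ENSDARG00000008859 was at 12.4, 12.5 and 12.8 CPM in wild-type pools, 14.4, 14.0 and 12.7 in heterozygous pools and 3.25, 2.98 and 3.46 in homozygous pools. Homozygous pools were below all others, and heterozygous pools overlapped with wild type. It fell by 1.96 ± 0.09 on the log2 scale against wild type (adjusted p = 2.24e-11) and by 2.09 ± 0.09 against heterozygous embryos (adjusted p = 1.05e-11). Among tested genes with a negative change it ranked 166 of 9807 and 74 of 10077. The heterozygous change of 0.12 ± 0.08 did not pass (adjusted p = 0.290, interval -0.05 to 0.30).

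The other ID, ENSDARG00000055118, was highest in heterozygous embryos. It was at 2.28, 2.88 and 3.56 CPM in wild-type pools, 4.36, 5.03 and 5.86 in heterozygous pools and 3.28, 2.86 and 3.97 in homozygous pools. Heterozygous pools were above all others, and homozygous and wild-type pools overlapped. It rose by 0.80 ± 0.17 in heterozygous against wild-type embryos (adjusted p = 0.00192). It was at -0.60 ± 0.17 in homozygous against heterozygous embryos (adjusted p = 0.00864). Leaving out homozygous replicate 2 ended this call (0.0517). Homozygous against wild-type embryos gave 0.20 ± 0.17 (adjusted p = 0.378, interval -0.17 to 0.56).

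ENSDARG00000008859 held 81.3% ± 3.13 of the MYLIP counts of a library in wild type, 72.9% ± 4.23 in heterozygous and 49.1% ± 2.34 in homozygous embryos (SD, n = 3). No pair of genotypes overlapped in this share, with an exact permutation p of 0.10 for each pair, the smallest possible. The summed level of both IDs was 15.5 ± 0.850 CPM in wild type, 18.8 ± 0.241 in heterozygous and 6.60 ± 0.796 in homozygous embryos. Paralogues can share reads, so the split between these IDs depends on how such reads were counted, which the sources used here do not give.

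The sterol carrier gene stard4 was at 5.18, 5.29 and 5.07 CPM in wild-type pools, 7.18, 6.21 and 6.66 in heterozygous pools and 22.2, 21.96 and 21.9 in homozygous pools. The 3 genotypes did not overlap. The SD of the homozygous group was 0.137 CPM, from pools with 1555, 1398 and 939 counts. An SD of 3 pools is imprecise, and this value does not show that the level was tightly held. Its rise was 4.25-fold in homozygous (log2 2.09 ± 0.08, adjusted p = 2.09e-12) and 1.29-fold in heterozygous against wild-type embryos (log2 0.37 ± 0.08, adjusted p = 0.00311). Homozygous embryos were 3.29-fold above heterozygous ones (log2 1.72 ± 0.08, adjusted p = 2.22e-11).

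**Figure D3:**
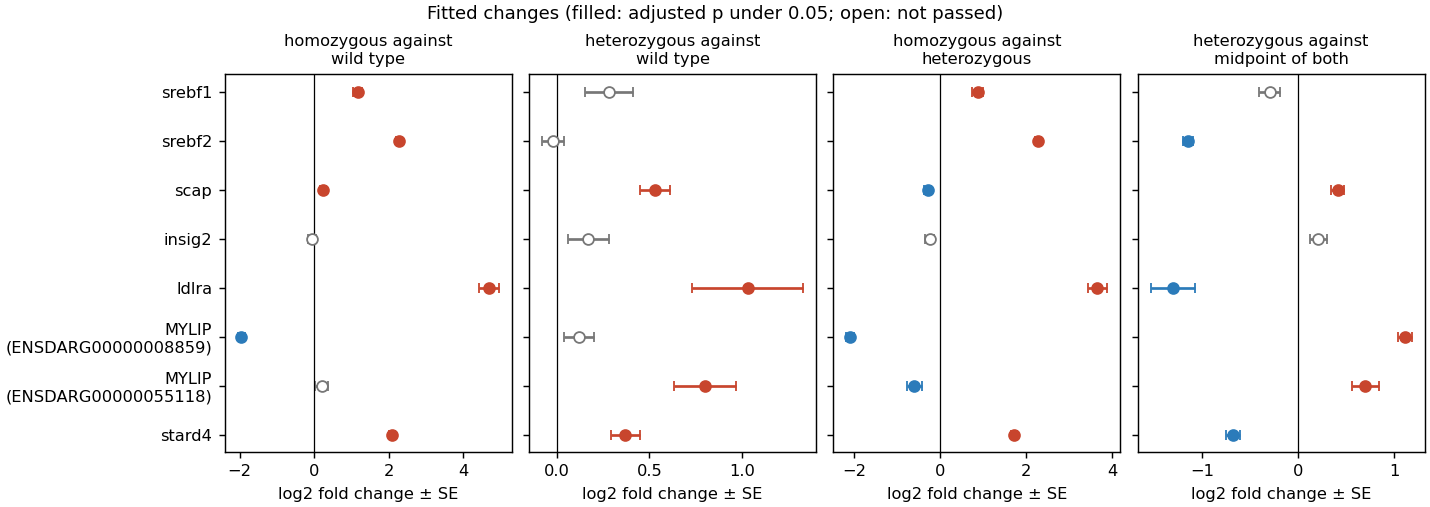
Fitted log2 fold changes ± SE of the 8 tested genes in 4 comparisons, each with its own axis range. Filled points passed at an edgeR adjusted p under 0.05 (red higher, blue lower) and open points did not. In homozygous against wild-type embryos the changes run from -1.96 to 4.69, and in heterozygous against wild-type embryos from -0.02 to 1.03.

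Heterozygous embryos were next set against the midpoint of wild type and homozygous on the log2 scale. Of the 8 genes, 3 lay above the midpoint, 3 below and 2 did not pass, where 33.7% of all tested genes were called, 16.7% above and 17.0% below. The 3 below were ldlra (-1.31 ± 0.23, adjusted p = 3.37e-04), srebf2 (-1.15 ± 0.05, adjusted p = 4.29e-10) and stard4 (-0.68 ± 0.07, adjusted p = 2.35e-06), all genes that rose in homozygous embryos. The 3 above were MYLIP ENSDARG00000008859 (1.11 ± 0.07, adjusted p = 8.75e-09), MYLIP ENSDARG00000055118 (0.70 ± 0.14, adjusted p = 0.00113) and scap (0.41 ± 0.07, adjusted p = 1.43e-04). On the linear CPM scale, the heterozygous mean had covered 3.97% of the distance from wild type to homozygous for ldlra, 8.93% for stard4, 17.4% for srebf1 and -0.288% for srebf2. In mean CPM, heterozygous embryos thus stood nearer to wild type than to homozygous embryos for these 4 genes. For srebf1 the log2 distance from the midpoint, -0.30 ± 0.11, did not pass (adjusted p = 0.0776), but it passed with DESeq2 (0.00524), limma-voom (0.0292) and without wild-type replicate 3 (4.9e-05).

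**Figure D4:**
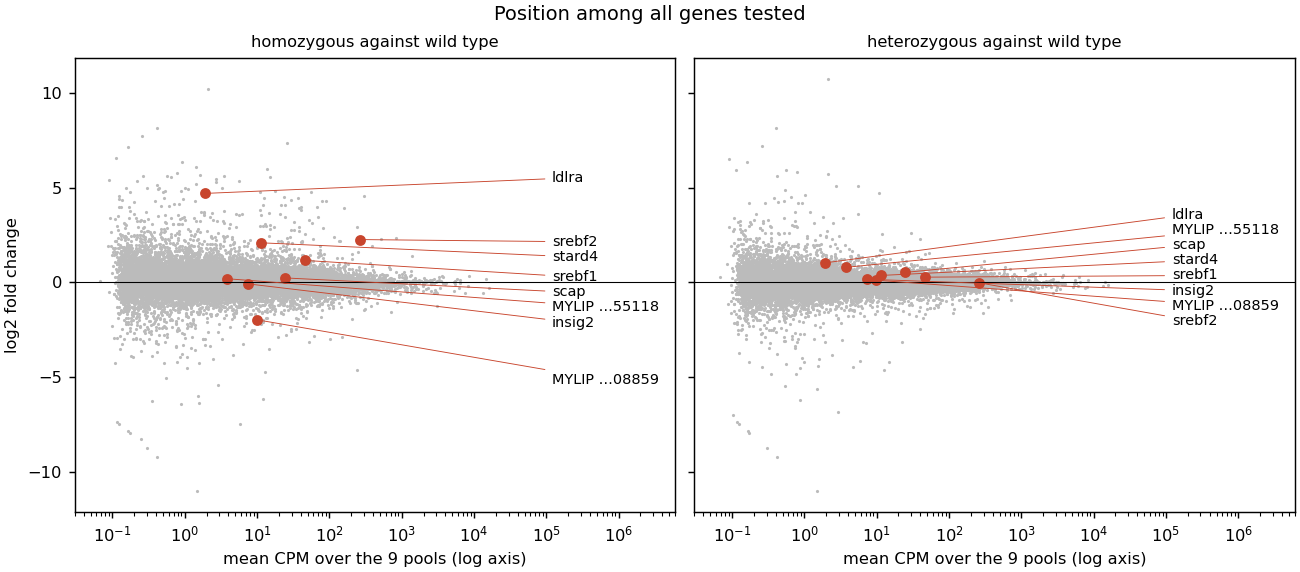
Log2 fold change of all 20375 tested genes (grey) against their mean CPM over the 9 pools on a log axis, with the 8 genes described here in red. In homozygous against wild-type embryos (left) ldlra, srebf2, stard4 and srebf1 stand at 4.69, 2.26, 2.09 and 1.16 and MYLIP ENSDARG00000008859 at -1.96. In heterozygous against wild-type embryos (right) srebf2 is at -0.02 and ldlra at 1.03.

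Other genes of the pathway were read from 6 lists. Beside the counts of each list stand the shares of all tested genes. In homozygous against wild-type embryos 23.5% were called higher and 21.1% lower. In heterozygous against wild-type embryos 15.5% were called higher and 14.4% lower. Other proteins that escort, cleave or degrade SREBP, SCAP and INSIG did not move one way in homozygous embryos. Of 22 tested, 5 rose, 7 fell and 10 did not pass, with a median log2 fold change of -0.01. RNF145 (ENSDARG00000002609), a ubiquitin ligase reported in mouse to act on SCAP, fell from 17.5 ± 0.302 to 8.65 ± 0.635 CPM (log2 -1.02 ± 0.08, adjusted p = 1.93e-08). Its paralogue rnf145b rose by 0.39 ± 0.06 (adjusted p = 2.15e-05). AUP1 and ERLIN1, which act in degradation at the endoplasmic reticulum, were at -0.35 ± 0.05 (adjusted p = 5.82e-05) and -0.37 ± 0.06 (adjusted p = 1.50e-04). In heterozygous against wild-type embryos 5 of the 22 rose, 4 fell and 13 did not pass, and RNF145 was at 0.29 ± 0.08 (adjusted p = 0.00880). There AUP1 was at -0.39 ± 0.05 (adjusted p = 4.26e-05), rnf145b at 0.13 ± 0.06 (0.0986) and ERLIN1 at -0.03 ± 0.06 (0.802). Between homozygous and heterozygous embryos the change of AUP1 did not pass (0.05 ± 0.05, adjusted p = 0.537), while that of ERLIN1 did (-0.34 ± 0.06, adjusted p = 3.27e-04).

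The list of lipoprotein receptors and adaptors was split as well. It also held lipases, a chaperone and receptor relatives such as LRP5 and LRP6. Its counts and medians are those of the whole list, not of lipoprotein receptors alone. Of 30 tested, 9 rose, 12 fell and 9 did not pass in homozygous against wild-type embryos (median -0.13), and 5 rose, 4 fell and 21 did not pass in heterozygous embryos (median -0.05). Besides ldlrb, LIPG, a lipase of the vessel wall in mammals, rose from 54.4 ± 1.20 to 133 ± 5.55 CPM (log2 1.29 ± 0.05, adjusted p = 1.17e-12). The endocytic adaptor gene dab2 (ENSDARG00000031761) fell from 47.8 ± 1.30 to 25.2 ± 1.46 CPM (log2 -0.92 ± 0.06, adjusted p = 5.93e-10). Another ID with this symbol, ENSDARG00000053091, was at -0.21 ± 0.36 and did not pass (adjusted p = 0.671).

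The list of START domain proteins and intracellular sterol carriers also held VAPB and START domain proteins with other roles. Its counts and medians are those of the whole list, not of sterol carriers alone. In homozygous against wild-type embryos 12 of 33 rose, 4 fell and 17 did not pass (median 0.07). In heterozygous against wild-type embryos 1 of the 33 rose, 5 fell and 27 did not pass (median 0.05). TMEM97, which binds NPC1 in human cells, went from 10.96 ± 0.433 CPM in wild type and 10.9 ± 1.14 in heterozygotes to 56.4 ± 2.08 in homozygotes. Its rise in homozygous embryos was 2.36 ± 0.07 (adjusted p = 5.57e-14), and its heterozygous change was -0.02 ± 0.08 (adjusted p = 0.904). The oxysterol-binding protein gene OSBPL10 rose by 0.72 ± 0.06 (adjusted p = 6.71e-08) and NPC1 by 0.49 ± 0.04 (adjusted p = 1.07e-07), and stard9 was at -0.67 ± 0.06 (adjusted p = 1.85e-07).

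Target genes of the factors formed a further pair of lists. Of 20 SREBP2 target enzymes of sterol synthesis, 18 rose, 1 fell and 1 did not pass in homozygous against wild-type embryos (median 3.9), and 15 rose, 0 fell and 5 did not pass in heterozygous embryos (median 0.71), in which srebf2 itself was at -0.02 ± 0.06. HMGCS1, which makes the precursor of mevalonate, had 34.6 ± 2.01 CPM in wild type, 74.8 ± 1.43 in heterozygotes and 802 ± 47.1 in homozygotes. The SREBP1 list held target genes mainly of fatty acid synthesis, not all of them enzymes. Of 16 tested, 9 rose, 2 fell and 5 did not pass in homozygous embryos (median 0.50). In heterozygous embryos 8 rose, 2 fell and 6 did not pass (median 0.16). In homozygous against wild-type embryos MID1IP1 (ENSDARG00000019302), a regulator of acetyl-CoA carboxylase, rose by 2.90 ± 0.07 (adjusted p = 2.46e-15). ACLY (ENSDARG00000099079), which makes cytosolic acetyl-CoA, rose there by 1.58 ± 0.04 (adjusted p = 1.37e-14). Another ID with the symbol ACLY, ENSDARG00000055652, was at -0.1 ± 0.1 there and did not pass (adjusted p = 0.412). That sterol synthesis genes rose was among the results known when the list was made.

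LXR, its RXR partners and its target genes were tested as a further list because LXR induces MYLIP. Of 15 tested, 2 rose, 6 fell and 7 did not pass in homozygous against wild-type embryos (median -0.11), and 3 rose, 0 fell and 12 did not pass in heterozygous embryos (median 0.04). Of all tested genes, 44.5% and 29.8% were called in these comparisons. The cholesterol exporter ABCA1 (ENSDARG00000074635), an LXR target in mammals, had 66.9 ± 3.65 CPM in wild type, 84.3 ± 5.17 in heterozygotes and 7.66 ± 1.35 in homozygotes. It fell in homozygous embryos (log2 -3.14 ± 0.10, adjusted p = 2.83e-11), and its paralogue abca1b rose by 0.37 ± 0.04 (adjusted p = 1.83e-06).

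**Figure D5:**
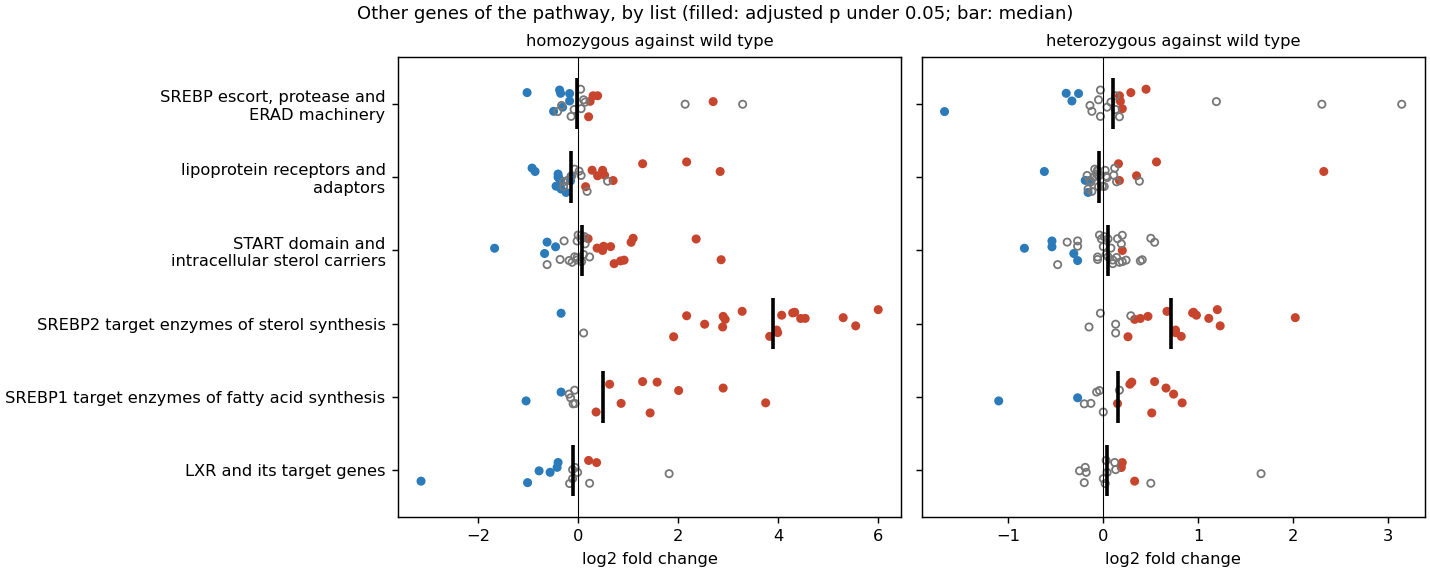
Log2 fold changes of the other pathway genes in 6 lists, 1 point per gene ID, in homozygous (left) and heterozygous (right) against wild-type embryos, each with its own axis range. Filled points passed at an edgeR adjusted p under 0.05, and black bars are list medians. The median of the sterol synthesis enzymes is 3.9 on the left and 0.71 on the right, and the other medians lie between -0.13 and 0.50.

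Whole embryos hold all cell types, and markers of several moved with genotype. Of all tested genes, 23.5% were called higher and 21.1% lower in homozygous against wild-type embryos, the comparison of the marker counts below. In homozygous against wild-type embryos 9 of 10 tested neuron markers rose and 0 fell, with a summed level of 1030 to 1128 CPM in wild-type, 947 to 1008 in heterozygous and 1622 to 1760 in homozygous pools. Skeletal muscle markers fell in 6 of 8 tested and rose in 0, from a sum of 12103 to 12874 CPM in wild-type to 10816 to 11155 in heterozygous and 7570 to 7685 in homozygous pools. Of 4 erythroid markers tested 4 fell, from 2632 to 2809 CPM in wild-type to 2159 to 2373 in heterozygous and 1954 to 2018 in homozygous pools. Macrophage markers rose in 4 of 10 and fell in 0, with sums of 47.8 to 64.5, 55.8 to 57.3 and 69.5 to 71.7 CPM in the same order. Marker counts are of gene IDs, and many of the 14 matched macrophage IDs, which the sums cover, share the symbol MFAP4. Of 7 markers of the yolk syncytial layer, the tissue that packs yolk lipid into lipoproteins, 1 rose and 2 fell, with sums of 17838 to 18169, 17616 to 18321 and 19766 to 20000 CPM. No matched marker ID was at 0 counts over all libraries. The part of these cell types in the changes of the SREBP and LDL receptor genes was not tested.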

How the data were processed

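The authors deposited whole-number counts per gene for 9 libraries, not normalized. Per the submitters' processing notes, cutadapt 1.18, HISAT2 2.1.0 and featureCounts 1.6.3 were used with build GRCz11; the annotation release, the strand setting and how shared reads were treated are not given in the sources. Of counts from 1 to 19, 96.3% to 97.5% per library were even. Why was not tested; counts were also halved as an alternative. Wilson intervals and the limit of 3 counts cover counting error only and take each count as 1 fragment; intervals of fold changes come from the edgeR fit.

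Groups and replicate numbers came from the sample titles. Of 32520 gene IDs, 29201 had a symbol. Genes were tested with edgeR 4.0.16 (R 4.3.3; quasi-likelihood F test, robust fit, TMM scaling, all 9 libraries in 1 fit, Benjamini-Hochberg adjustment within each comparison). The default filter kept 20375 genes and dropped 12145. Standard errors were taken as |log2 fold change| over the root of the F statistic. CPM were scaled by TMM (factors 0.981 to 1.02) and are not per length, so levels were not compared between genes. No replicate was a duplicate: on halved counts, pairs gave a chi-square of 2.56 to 6.99 per degree of freedom. The procedure was tested on simulated counts. In these, far fewer genes changed than were called here, and heterozygotes lay at the log2 midpoint of the changed genes. The simulation thus does not cover data like these.

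Members and lists were chosen with earlier results of these data known. Of 146 entries in 6 pathway lists 6 had no match, and of 37 marker entries 5. All members were named. Of each list up to 4 genes were named, by lowest adjusted p in homozygous against wild type. For the sterol, fatty acid and LXR lists it was up to 2, and for the sterol list only HMGCS1 is described. For ACLY and dab2 a further ID of the same symbol is given beside the ID that this rule names. Some results that the rule names are not reported here, and 1 list entry was left out for that reason. Alternatives were RLE and upper-quartile scaling, DESeq2 1.42.0, limma-voom (limma 3.58.1), no filter, 1 CPM in 3 libraries, only the 2 genotypes compared, halved counts, a replicate block, and each library left out.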

Additional observations from a re-analysis of the deposited data

How the results depend on the processing

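Across 18 alternatives for each comparison of genotypes and 17 for the midpoint, 548 of 568 recomputed log2 fold changes of the 8 genes kept their direction and their side of the threshold, 8 lost a call, 8 gained one and 4 changed sign. The 4 sign changes were all of changes that had not passed. For insig2 in homozygous against wild-type embryos the value was 0.02 without homozygous replicate 3, and -0.20 to 0.02 over all 18 alternatives. For srebf2 in heterozygous against wild-type embryos it was 0.01 without heterozygous replicate 1 and 0.01 without wild-type replicate 1. It was 0.04 without wild-type replicate 2, and -0.09 to 0.04 over all 18 alternatives. The rises of srebf2, srebf1, ldlra and stard4 and the fall of MYLIP ENSDARG00000008859 in homozygous against both other genotypes were called in all 18. Leaving out 1 library gave 7783 to 9263 called genes for homozygous against wild type, 4835 to 6277 for heterozygous against wild type, 6776 to 8482 for homozygous against heterozygous and 5246 to 7070 for the midpoint. No scaling moved the median of all genes by more than 0.015. The main fit did not treat replicate numbers as pairs. Deviations of same-numbered libraries correlated at -0.024 to 0.021 where 1 of them was wild type. Between heterozygous and homozygous libraries of the same number the correlation was 0.056 to 0.085. Among homozygous libraries, each heterozygous library correlated best with that of its own number. These low values do not settle whether the numbers mark pairs of heterozygous and homozygous pools. With a replicate block, 9073, 6133, 8164 and 6890 genes were called in these comparisons, and insig2 passed in homozygous against heterozygous embryos (-0.25, adjusted p = 0.0485), as did srebf1 against the midpoint (-0.29, adjusted p = 0.0435). Without homozygous replicate 1, insig2 passed against the midpoint (0.27, adjusted p = 0.0319). Low counts limit the precision of ldlra in wild-type pools, and why insig1 held almost no counts was not tested.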

Other observations

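For each of the 8 tested genes, the genes with the most similar pattern were sought among 10804 or 10805 with a mean of at least 5 CPM, as the smallest root mean square difference of log2 CPM over the 9 libraries after centring each gene on its own mean. These values are a description, and most of each pattern is the difference between genotypes. Nearest to stard4 were ldlrb (difference 0.1) and ACAT2, an enzyme at the entry to sterol synthesis (0.108), where stard4 itself varied by 0.909 around its mean. Nearest to ldlra, which varied by 1.96, were the sterol synthesis genes LSS (0.304) and SC5D (0.315). The pattern of srebf2, which varied by 1.07, was not nearest to a gene of the sterol lists: SBNO2 (0.081; log2 fold changes of 2.18 in homozygous and -0.05 in heterozygous against wild-type embryos) and FOSL2 (0.115; 2.37 and 0.01) came first. The patterns nearest to srebf1 were those of NAB1 (0.057) and CNTNAP2 (0.089).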
